A study of Mus musculus with 30 samples.

Results

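The genes that encode the subunits of the mitochondrial respiratory chain and of ATP synthase were followed in whole lungs of C57BL/6 mice. Members were chosen by name: every probe set on the array with a single gene symbol that starts with Ndufa, Ndufb, Ndufc, Ndufs, Ndufv, Uqcr, Cox4 to Cox8 or Atp5, or that is Sdh with a letter of a to d. The rule took 185 of 45037 probe sets, which stand for 94 of 18193 genes. No measured value entered the rule, but this family of genes was chosen with earlier results of these data known. The rule covers nuclear genes only, and it also takes 12 assembly and coupling factors whose symbols carry the same stems (Ndufaf1 to Ndufaf8 and Sdhaf1 to Sdhaf4).

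The study compared 30 arrays, each from the lung of 1 animal, in 8 groups. Adult mice were 16 weeks old and juvenile mice 21 days old. At each age, 1 group breathed an aerosol of Escherichia coli lipopolysaccharide (LPS) and was then ventilated (LPS+MV), 1 group breathed LPS only, 1 group was ventilated only (MV), and 1 group of untreated, spontaneously breathing animals served as control. LPS was given as 20 mL of a 0.1 mg/mL solution over 30 min, and animals of the LPS groups then breathed spontaneously for 2 h. Ventilation lasted 2 h with a tidal volume of 15 mL/kg, 80 breaths per minute, 30% oxygen and an end-expiratory pressure of 2 cmH2O. There were 3 arrays each in the juvenile LPS+MV and juvenile MV groups and 4 in each of the other 6 groups. No vehicle aerosol and no sham-ventilated group was analysed here, so each treatment stands for the agent together with its procedure. The labels state no sex.

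The respiratory chain sits in the inner mitochondrial membrane. Complex I takes electrons from NADH and complex II takes them from succinate; both pass them through ubiquinone to complex III, then through cytochrome c to complex IV, which hands them to oxygen. Complexes I, III and IV pump protons while this happens, and ATP synthase uses the gradient to make ATP. In the lung, type 2 alveolar cells, which make surfactant, and ciliated airway cells are known to be rich in mitochondria.

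Expression was measured as the summarised intensity of a probe set on a linear scale, as normalized by the authors. Of the 94 genes, 91 lay above their array's median intensity on at least 3 arrays and were tested; Ndufb4, Cox7c and the testis isoform Cox7b2 did not. Among the 91 there were 33 genes of complex I (6 core and 27 accessory subunits), 4 of complex II, 8 of complex III, 10 of complex IV, 17 of ATP synthase, 12 assembly and coupling factors and 7 tissue isoforms of complex IV or complex I subunits. The first 5 groups are called structural subunits below and number 72. Each gene was read from its brightest probe set, and a difference is given as the difference of group means of log2(intensity + 32) with its standard error (SE). It was tested with limma over all 13089 genes that passed the filter, and a gene was called at a Benjamini-Hochberg adjusted p under 0.05. The added constant of 32 makes differences of dim genes smaller than their true size. The arrays come from whole lung, so fewer cells of a type and less RNA per cell cannot be told apart.

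Several arrays stood apart before any comparison. The labelled tissue fits the defining markers on all arrays, with a sum over 8 type 2 cell markers, surfactant genes among them, of 42280 to 53902. Adult LPS+MV replicate 2 carried signal of other tissue: the brown fat gene Ucp1 had an intensity of 669 there, against 17.9 to 44.1 on the other 3 arrays of its group, and Cidea had 436, against 30.3 to 59.9. Summed over 7 brown fat markers it reached 7415, against 1031 to 2625, and its 9 T and B cell markers summed to 6209, against 1004 to 2343. The sum over 19 cardiac muscle markers was 19407 on that array, 23112 on adult LPS+MV replicate 3 and 23557 on juvenile LPS replicate 4, and 6091 to 13744 on the other 27 arrays. Juvenile control replicate 4, juvenile MV replicate 3 and juvenile LPS+MV replicate 3, with adult LPS+MV replicate 2, were the 4 arrays least like their own group, with Pearson correlations over all genes tested of 0.9822 to 0.9855. The transcript Xist was high on all 4 adult MV arrays and on none of the 4 adult control arrays. It was also high on adult LPS+MV replicates 1, 2 and 3 and on juvenile LPS+MV replicates 2 and 3. Replicate 3 of juvenile MV and of juvenile control had high Xist too, and no array of the LPS-only groups did. Main counts of members are also given with some of these arrays left out. Counts of pathway lists are given without an array only for adult LPS+MV lungs, without replicate 2. All other list counts, juvenile and adult MV ones among them, rest on all arrays and have no term for high Xist.

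Juvenile lungs exposed to LPS and then ventilated had lower levels of most respiratory chain transcripts than juvenile control lungs. Of the 91 members, 55 fell (60.4%) and none rose, while 20.5% of all genes tested fell and 10.8% rose. The median difference over the members was -0.29, against -0.05 over all genes. The differences were small and shared: they ran over the members from -0.65 for Sdhaf4 at the low end to 0.15 for Cox8c, and 87 of 91 were negative. On 53 members every juvenile LPS+MV array lay below every juvenile control array. The matching count over all genes tested was 2684 (20.5%). It equals the number of all genes called lower, although among the members the counts differ (53 and 55). The 53 was therefore not set against it as a separate comparison.

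**Figure D1:**
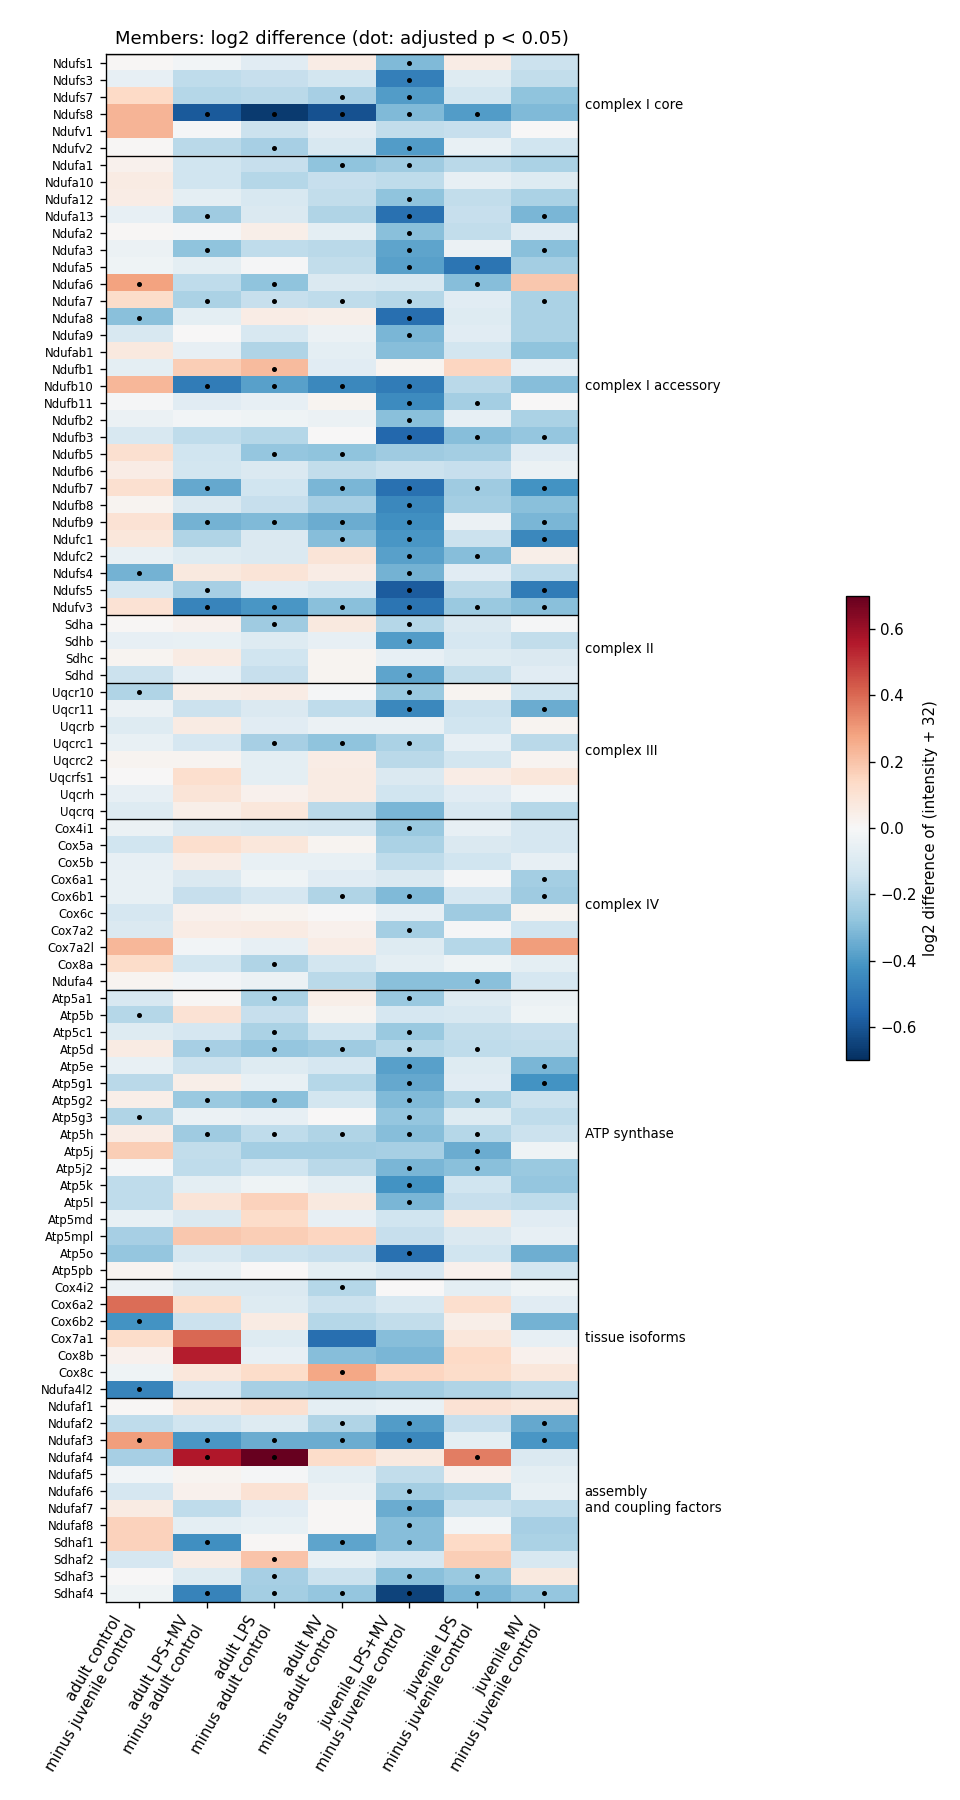
Log2 difference of (intensity + 32) for the 91 members (rows, grouped by complex) in 7 comparisons (columns: adult control against juvenile control, then adult and juvenile LPS+MV, LPS and MV, each against the control of its age). Blue is lower and red higher in the group named first, and a dot marks an adjusted p under 0.05; the juvenile LPS+MV column holds 55 dots, all on blue cells.

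Complex I gave the most of these calls. In juvenile LPS+MV lungs 26 of its 33 members fell, 5 of 6 core subunits and 21 of 27 accessory subunits, with a median difference of -0.37. Ndufv3, an accessory subunit of the arm that oxidises NADH, had intensities of 925, 910 and 924 on the juvenile LPS+MV arrays, against 1409, 1287, 1323 and 1290 on the juvenile control arrays. The groups did not overlap, and the LPS+MV level was 0.7 of the control level (log2 difference -0.51 ± 0.08, limma adjusted p = 1.5e-05). Ndufb7, a subunit of the membrane arm, had 681, 660 and 684 in LPS+MV lungs, against 969, 931, 1084 and 957 in control lungs. These groups too were apart, and the log2 difference was -0.52 ± 0.08 (limma adjusted p = 3e-05); a second probe set of Ndufb7 gave -0.64. Other accessory subunits that fell by similar amounts were Ndufs5 (-0.58 ± 0.10), Ndufb3 (-0.55 ± 0.09), Ndufa8 (-0.53 ± 0.11) and Ndufa13 (-0.52 ± 0.09). Among the core subunits, which hold the iron-sulfur clusters and the flavin that carry the electrons, Ndufs3 fell by 0.48, Ndufs7 by 0.39, Ndufv2 by 0.39 and Ndufs1 by 0.31 on the log2 scale. Ndufs8 was called at -0.31 ± 0.12 (limma adjusted p = 0.047) but its groups overlapped. The 6 probe sets of Ndufs8 ranged from -0.50 to -0.10 in this comparison. Ndufv1, the core subunit that binds NADH, was not called (-0.17 ± 0.10, limma adjusted p = 0.19).

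Complex II, the succinate dehydrogenase that also belongs to the citric acid cycle, had 3 of 4 members lower. Its iron-sulfur subunit Sdhb had 959, 962 and 904 in juvenile LPS+MV lungs, against 1272, 1254, 1319 and 1145 in juvenile control lungs. The groups were apart (-0.39 ± 0.09, limma adjusted p = 0.0015). The membrane anchor Sdhd fell by 0.37 and the flavoprotein Sdha by 0.20, while the other anchor, Sdhc, was at -0.06 ± 0.09 and was not called.

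Fewer members of complexes III and IV were called. In complex III 3 of 8 fell: Uqcr11 (-0.45 ± 0.10), Uqcr10 (-0.26) and the core protein Uqcrc1 (-0.22 ± 0.08). The small subunit Uqcr11 had 584, 550 and 694 in juvenile LPS+MV lungs, against 867, 882, 828 and 793 in juvenile control lungs, with no overlap (limma adjusted p = 0.0014). In complex IV 3 of 10 fell: Cox6b1 (-0.31 ± 0.07), Cox4i1 (-0.26 ± 0.07) and Cox7a2 (-0.24 ± 0.09). Cox6b1, which faces the space between the membranes, had 2771, 2727 and 2751 in LPS+MV lungs, against 3632, 3395, 3441 and 3252 in control lungs. Its groups did not overlap (limma adjusted p = 0.0014). Cox6c, Cox8a and Uqcrb had differences of -0.06 ± 0.13, -0.07 ± 0.07 and -0.04 ± 0.09 and were not called. Whether complexes I, III and IV differed from each other was not tested.

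ATP synthase had 12 of 17 members lower, with a median of -0.27. Atp5e, the epsilon subunit of the central stalk, had 1075, 1078 and 1268 in juvenile LPS+MV lungs, against 1569, 1554, 1522 and 1339 in juvenile control lungs. The highest LPS+MV array lay under the lowest control array (-0.38 ± 0.09, limma adjusted p = 0.0012). Atp5h, the d subunit of the side stalk, had 2952, 2773 and 3097, against 3572, 3344, 4079 and 3548 in control lungs, again without overlap (-0.30 ± 0.07, limma adjusted p = 0.0013). Atp5o, which joins the side stalk to the catalytic head, fell by 0.52, and Atp5k by 0.42. All 3 genes of the proton-carrying c ring fell, Atp5g1 by 0.36, Atp5g2 by 0.31 and Atp5g3 by 0.27, as did Atp5a1 (-0.26), which encodes the alpha subunit of the catalytic head. Its partner Atp5b, the catalytic beta subunit, was at -0.12 ± 0.07 and was not called.

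The assembly and coupling factors moved the same way, with 8 of 12 lower and none higher. Sdhaf4, which protects the flavin-loaded Sdha until complex II is put together, had the largest difference of the 91 members in this comparison; it falls outside the rule for printing values per array and was chosen after its value was seen. Its intensities were 174, 162 and 143 in juvenile LPS+MV lungs, against 268, 279, 280 and 248 in juvenile control lungs. The groups were far apart, at 0.638 of the control level (-0.65 ± 0.09, limma adjusted p = 1.5e-06). Ndufaf3, an assembly factor of complex I, fell by 0.45 and Ndufaf2 by 0.39. Ndufaf4, the partner of Ndufaf3, was at 0.07 ± 0.11. None of the 7 tissue isoforms was called in this comparison.

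Markers of several cell types also differed in these lungs, where 20.5% of all genes tested fell and 10.8% rose. In juvenile LPS+MV lungs all 10 neutrophil markers that were tested rose, with sums of 20869 to 22006, against 2035 to 5592 in juvenile control lungs. Of the 8 type 2 cell markers 5 fell, with sums of 42280 to 44956 against 47132 to 53902 in control lungs. Sums over 8 type 1 cell markers were 29442 to 30041, against 30801 to 36629, and sums over 10 endothelial markers were 12258 to 12859, against 13266 to 17060. Sums over 9 ciliated cell markers were 1811 to 2304, against 2778 to 3227 in control lungs, and 2 of the 9 fell. Of the 7 proliferation markers tested 5 fell. Pericyte marker sums were 5970 to 7858, against 7040 to 9174 in control lungs. T and B cell marker sums were 968 to 1041, against 933 to 1118. Brown fat marker sums were 578 to 1162, against 680 to 2410, and red cell marker sums 4688 to 6182, against 5745 to 10061. The groups overlapped in the pericyte, T and B cell, brown fat and red cell sums. The part of these markers in the lower respiratory chain levels was not tested. Cardiac muscle markers summed to 7700 to 10593 in LPS+MV lungs, against 9469 to 12431 in control lungs, and none of the 19 was called. The mean log2 level of the 72 structural subunits was 10.04 ± 0.02 (SD, n = 3) in juvenile LPS+MV lungs and 10.33 ± 0.07 (SD, n = 4) in juvenile control lungs. Leaving out the 4 arrays least like their group gave 59 members lower (64.8%), with 19.1% of all genes lower.

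**Figure D2:**
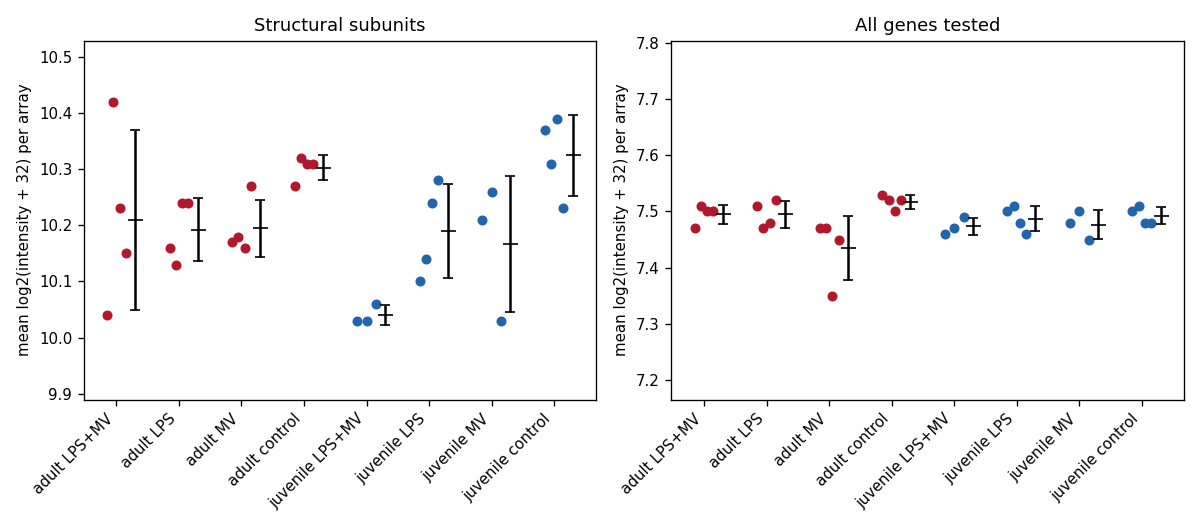
Mean log2(intensity + 32) per array over the 72 structural subunits (left) and over all 13089 genes tested (right), on axes of equal span; points are arrays, red for adult and blue for juvenile, and the bar beside each group is its mean ± SD. The 3 juvenile LPS+MV arrays lie at 10.03 to 10.06 and the 4 juvenile control arrays at 10.23 to 10.39; the 4 adult LPS+MV arrays spread over 10.04 to 10.42.

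Members that fell together were looked at for letters that their promoters share. Genes of the respiratory chain are known to be regulated by nuclear respiratory factor 1, by the ETS-family factor GABP and by YY1. The letters searched were GCGCA followed directly by its own reverse complement for the first, with a looser form of the same length in which the letter after GCGCA may be any base, CCGGAAG for ETS factors and AANATGGCG for YY1, on both strands of RefSeq promoters (build GRCm38.p6) that span 250 bases before to 50 bases after the start. Of the 94 members 78 were in that table of 27025 genes. The looser form, which includes the strict one, was in 19 of the 78 (24.4%) and in 5.19% of all genes, and the strict form was in 6 (7.69%) and 1.07%. CCGGAAG was in 22 members (28.2%) and 9.93% of all genes, AANATGGCG in 11 (14.1%) and 2.76%, and TATAAA, the core of the TATA box, in 9 (11.5%) and 15.7%. Among members that fell in juvenile LPS+MV lungs, 14 of 49 had the looser form (28.6%), against 4 of 26 members not called (15.4%). The strict form went the other way, in 3 of 49 (6.12%) against 3 of 26 (11.5%). CCGGAAG was in 14 of 49 (28.6%), against 8 of 26 (30.8%), and AANATGGCG in 8 of 49 (16.3%), against 3 of 26 (11.5%). Whether these shares differ was not tested. A match describes letters and does not show that a factor binds. The following 5 promoters, each given as the 250 bases before the start with these letters in capitals, show how the matches sit: Atp5k, Atp5g2, Atp5h and Sdhd fell in juvenile LPS+MV lungs, and Ndufaf4, which carries the strict form as Atp5k and Atp5g2 do, rose with LPS. CTTCCGG is CCGGAAG read on the other strand. Atp5k is at chr5:108434400-108434649 on the minus strand, Atp5g2 at chr15:102671048-102671297 on the minus strand, Atp5h at chr11:115419920-115420169 on the minus strand, Sdhd at chr9:50603850-50604099 on the minus strand and Ndufaf4 at chr4:24897833-24898082 on the plus strand.
Atp5k: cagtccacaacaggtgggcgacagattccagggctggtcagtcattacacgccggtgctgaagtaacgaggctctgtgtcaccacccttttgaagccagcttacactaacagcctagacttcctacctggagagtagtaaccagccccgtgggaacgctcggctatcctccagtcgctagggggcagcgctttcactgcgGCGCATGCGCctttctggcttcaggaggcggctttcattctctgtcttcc
Atp5g2: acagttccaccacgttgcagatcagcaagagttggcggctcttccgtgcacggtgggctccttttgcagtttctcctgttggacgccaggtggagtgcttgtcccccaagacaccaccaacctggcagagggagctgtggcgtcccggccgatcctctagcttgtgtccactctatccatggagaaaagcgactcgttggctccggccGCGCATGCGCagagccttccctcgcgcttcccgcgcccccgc
Atp5h: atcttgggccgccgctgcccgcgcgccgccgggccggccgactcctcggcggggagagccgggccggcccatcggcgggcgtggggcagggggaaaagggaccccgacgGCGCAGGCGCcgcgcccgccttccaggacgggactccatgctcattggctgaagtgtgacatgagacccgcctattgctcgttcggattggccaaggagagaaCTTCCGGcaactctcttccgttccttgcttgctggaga
Sdhd: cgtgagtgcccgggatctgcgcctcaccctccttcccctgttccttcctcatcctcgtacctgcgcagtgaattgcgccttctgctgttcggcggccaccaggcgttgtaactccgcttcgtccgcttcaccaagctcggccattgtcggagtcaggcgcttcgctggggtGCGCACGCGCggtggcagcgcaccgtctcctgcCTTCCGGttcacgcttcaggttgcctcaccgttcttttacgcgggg
Ndufaf4: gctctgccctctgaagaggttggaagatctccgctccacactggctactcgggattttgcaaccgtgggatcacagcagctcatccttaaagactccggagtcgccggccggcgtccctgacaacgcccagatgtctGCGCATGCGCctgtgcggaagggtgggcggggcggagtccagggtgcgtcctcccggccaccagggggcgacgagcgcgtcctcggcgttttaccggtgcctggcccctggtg

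**Figure D3:**
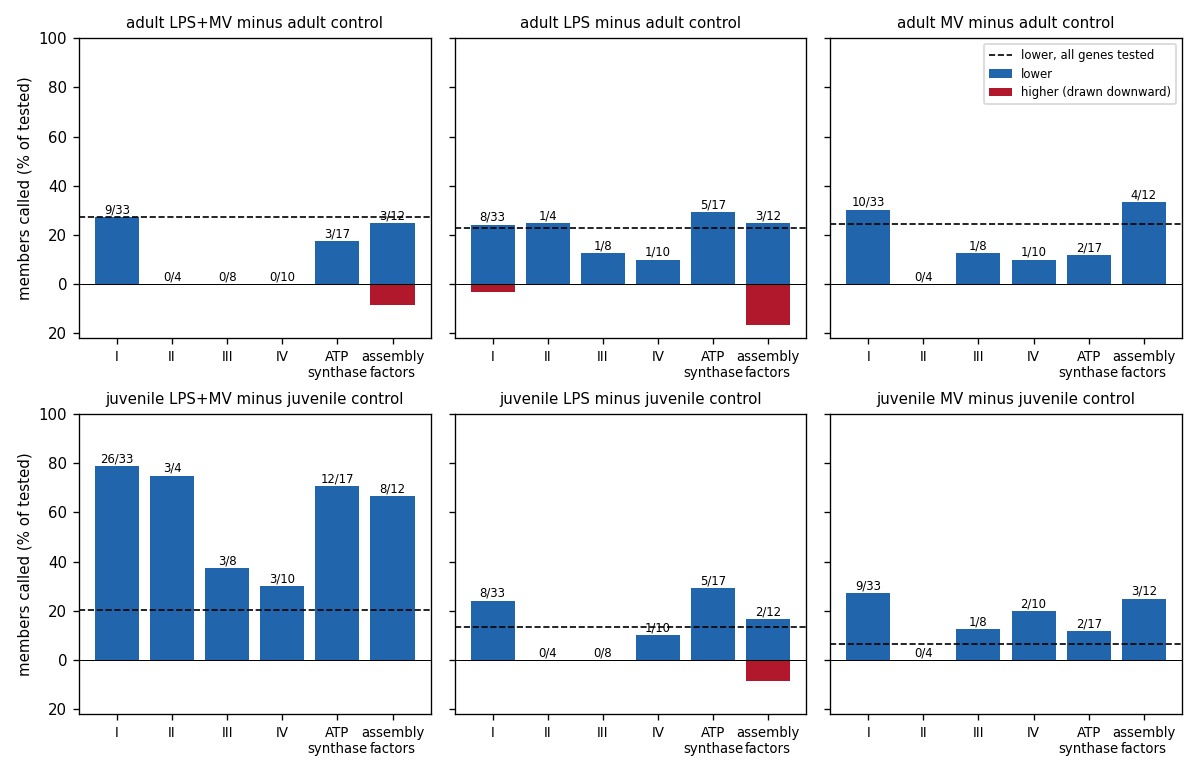
Percent of the tested members of each complex, and of the assembly and coupling factors, that were lower (blue, upward, with the count) or higher (red, drawn downward) than the control of the same age, in 6 comparisons. The dashed line is the percent of all genes tested that were lower; in juvenile LPS+MV lungs complex I, complex II, ATP synthase and the assembly factors stand at 26 of 33, 3 of 4, 12 of 17 and 8 of 12 over a line at 20.5%.

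Each treatment alone lowered fewer members in juvenile lungs. After ventilation alone 17 of 91 fell and none rose, while 6.45% of all genes tested fell and 4.42% rose. The median over the members was -0.15, against -0.02 over all genes. Complex I gave 9 of the 17, all accessory subunits, the assembly factors gave 3, complex IV and ATP synthase 2 each and complex III 1. Ndufb7 had 789, 800 and 610 on the juvenile MV arrays, against 969, 931, 1084 and 957 on the juvenile control arrays. All 3 MV arrays lay below the controls (-0.42 ± 0.08, limma adjusted p = 0.0027). Ndufs5 fell by 0.49, Ndufc1 by 0.45 and the assembly factor Ndufaf3 by 0.41. Uqcr11 had 691, 723 and 563 in MV lungs, against 867, 882, 828 and 793 in control lungs, without overlap (-0.35 ± 0.10, limma adjusted p = 0.031). Cox6a1, the isoform of its subunit found in most tissues, had 3650, 3687 and 3426, against 4596, 4115, 4306 and 4020 in control lungs, and its groups were apart too (-0.24 ± 0.07, limma adjusted p = 0.019). Atp5e had 1196, 1297 and 1088 in MV lungs, against 1569, 1554, 1522 and 1339 in control lungs, with no overlap (-0.32 ± 0.09, limma adjusted p = 0.018). Another c-ring gene, Atp5g1, fell by 0.42. Ndufb7, Uqcr11, Cox6a1 and Atp5e had their lowest MV value on replicate 3, and without that array 4 members were lower and 1 was higher, against 2.34% and 2.63% of all genes. Without juvenile control replicate 1, 9 members were called, all lower. A limma fit of the juvenile MV and juvenile control arrays alone called no member, with 31 at an unadjusted p under 0.05. For that fit, and without juvenile control replicate 1, the share of all genes is not given, so these counts describe the members only. Neutrophil markers summed to 4326 to 6733 in MV lungs, against 2035 to 5592 in control lungs; red cell markers summed to 2812 to 5869, against 5745 to 10061, with 4 of 5 lower. Ciliated cell markers summed to 1875 to 1924 in MV lungs, against 2778 to 3227 in control lungs, with 2 of 9 lower. These markers moved beside the lower members, and their part in the result was not tested.

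LPS alone lowered 16 members in juvenile lungs and raised 1, while 13.3% of all genes fell and 9.58% rose. The median was -0.12, against -0.03 over all genes. Complex I gave 8 of the 16, ATP synthase 5, the assembly factors 2 and complex IV 1. Ndufa5, an accessory subunit of the arm that extends into the matrix, had 314, 321, 401 and 389 on the juvenile LPS arrays, against 459, 497, 597 and 534 on the juvenile control arrays. The groups did not overlap (-0.51 ± 0.12, limma adjusted p = 0.0015), and a second probe set gave -0.41. Ndufs8 had 1195, 1175, 1151 and 1240 in LPS lungs, against 1324, 1392, 1779 and 1863 in control lungs, also apart (-0.39 ± 0.11, limma adjusted p = 0.0091). Atp5j, coupling factor 6 of ATP synthase, had 915, 1015, 1059 and 1262, against 1138, 1303, 1542 and 1457 in control lungs. Here 1 LPS array lay inside the range of the controls (-0.35 ± 0.11, limma adjusted p = 0.02). Ndufa4, which was first placed in complex I and is now counted to complex IV, had 1057, 1083, 1289 and 1414, against 1327, 1408, 1741 and 1465, with overlap as well (-0.29 ± 0.11, limma adjusted p = 0.048). Sdhaf4 fell by 0.32 and Ndufv3 by 0.26. The 1 member that rose was Ndufaf4, an early assembly factor of complex I. It had 261, 193, 246 and 196 in LPS lungs, against 164, 144, 179 and 178 in control lungs, without overlap (0.36 ± 0.10, limma adjusted p = 0.0092), and its second probe set was not called (0.24 ± 0.12). With single arrays left out the count moved: it was 8 in all without juvenile control replicate 3 and 9 without juvenile LPS replicate 1. The share of all genes is not given for these fits, so both counts describe the members only. Leaving out the 4 arrays least like their group gave 29 lower (31.9%, against 15% of all genes). Neutrophil markers summed to 14689 to 15752 in juvenile LPS lungs, against 2035 to 5592 in control lungs, and all 7 proliferation markers fell; their part in the result was not tested.

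The LPS+MV group was also set against each single treatment. Relative to LPS alone, 22 members were lower in juvenile LPS+MV lungs and none was higher, while 9.47% of all genes tested were lower and 6% higher; the median was -0.18. The 22 were 11 genes of complex I, 5 assembly factors, 2 each of complex III and ATP synthase and 1 each of complexes II and IV, which leaves none among the tissue isoforms. Ndufs3, a core subunit, fell by 0.39 and Ndufa8 by 0.44, and the LPS+MV arrays had Sdhb at 959, 962 and 904, against 1130, 1104, 1143 and 1212 on the LPS arrays (-0.28 ± 0.09, limma adjusted p = 0.038). Relative to MV alone, 7 members were lower and none higher, while 7.78% of all genes tested were lower and 6.95% higher. The 7 included Ndufb11 (-0.44 ± 0.09), Ndufc2 (-0.42 ± 0.09), Cox7a2l (-0.38), known as a factor that joins complexes III and IV, and Sdhaf4 (-0.37 ± 0.09). The share of members lower against MV alone, 7.69%, is close to that of all genes. The count against LPS alone was 11 with a term for high Xist, 14 in a limma fit of the compared groups alone, 12 without juvenile LPS replicate 3 or without juvenile LPS+MV replicate 3, and 14 without juvenile LPS+MV replicate 2. With the Xist term 637 of all genes tested were lower and 496 higher, against 1239 and 785 in the main fit. For the other fits the share of all genes is not given. Against MV alone it was 16 without juvenile MV replicate 3, and 3 or 4 without juvenile MV replicate 1 or 2 or juvenile LPS+MV replicate 2.

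With all arrays in the fit, the share of members in adult lungs that fell was below that of all genes tested after each treatment. LPS+MV lowered 15 members and raised 1, while 27.3% of all genes tested fell and 14.8% rose; the median was -0.08, against -0.05 over all genes. Of the 15, 9 were in complex I, 3 in ATP synthase and 3 among the assembly factors, with none in complexes II to IV. Ndufv3 had 904, 1224, 1051 and 945 on the adult LPS+MV arrays, against 1296, 1563, 1422 and 1420 on the adult control arrays. The groups did not overlap (-0.46 ± 0.07, limma adjusted p = 1.2e-05). Ndufs8 had 1079, 1544, 1233 and 1098, against 1635, 1983, 1954 and 1896 in control lungs, again apart (-0.59 ± 0.11, limma adjusted p = 8.4e-05). Atp5h had 2847, 3444, 3306 and 3110, against 3585, 3969, 3719 and 3796 in control lungs, with a gap between the groups (-0.25 ± 0.06, limma adjusted p = 0.0025). Sdhaf4 fell by 0.47, Sdhaf1 by 0.43 and Ndufaf3 by 0.41.

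Markers of several cell types differed in the same adult LPS+MV lungs, where 27.3% of all genes tested fell and 14.8% rose. Endothelial markers summed to 9912 to 11598 in adult LPS+MV lungs, against 14880 to 15417 in adult control lungs, with 7 of 10 lower. Type 1 cell markers summed to 25891 to 28903, against 36325 to 38467 in control lungs, and type 2 cell markers to 43821 to 47069, against 48966 to 53075, with 6 of 8 lower in each list. Ciliated cell markers summed to 2519 to 3205, against 3847 to 4458 in control lungs, with 2 of 9 lower and 1 higher. All 5 red cell markers fell, with sums of 1315 to 1693 in LPS+MV lungs against 2623 to 3328 in control lungs. The groups did not overlap in these 5 sums. Neutrophil markers summed to 22972 to 28971 in LPS+MV lungs, against 3981 to 26500 in control lungs, with overlap and 4 of 10 higher, and the part of all these cell types in the result was not tested.

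Adult LPS+MV replicate 2, the array with brown fat and cardiac signal, was the highest array of its group for 77 of the 91 members, such as Ndufv3 at 1224, Ndufs8 at 1544 and Sdhb at 1473. The 4 adult LPS+MV arrays had structural subunit means of 10.04 to 10.42, with 10.42 on replicate 2, and a mean of 10.21 ± 0.16, against 10.31 ± 0.02 in adult control lungs (SD, n = 4 each). Without replicate 2, 31 members were lower (34.1%) and 1 was higher, against 26.2% of all genes lower, and the median was -0.15. Ndufs8 was then at -0.70 ± 0.11 and Ndufv3 at -0.54 ± 0.07. Leaving out the 3 arrays highest in cardiac muscle markers gave 30 lower (33%, against 20.7% of all genes), and leaving out the 4 arrays least like their group gave 37 lower (40.7%, against 28.5%). The part of the brown fat and cardiac markers in the adult values was not tested beyond these fits.

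Adult MV and adult LPS each lowered 19 members. For MV these were 20.9% of the members, with 24.3% of all genes lower and 7.15% higher, and for LPS 20.9%, with 23% of all genes lower and 13% higher. After MV complex I gave 10 of the 19, the assembly factors 4, ATP synthase 2, and complexes III and IV and the tissue isoforms 1 each. Ndufs8 had 1217, 1195, 1223 and 1216 on the adult MV arrays, against 1635, 1983, 1954 and 1896 on the adult control arrays. The groups were far apart (-0.61 ± 0.11, limma adjusted p = 1.7e-04). Uqcrc1 had 572, 578, 530 and 610 in MV lungs, against 703, 752, 676 and 669 in control lungs, without overlap (-0.28 ± 0.07, limma adjusted p = 0.0053). Cox6b1 had 2760, 2930, 2729 and 3045, against 3180, 3327, 3409 and 3355 in control lungs, also apart (-0.21 ± 0.07, limma adjusted p = 0.018). Atp5d, the delta subunit of the central stalk, had 1689, 1778, 1679 and 1743, against 1920, 2126, 2070 and 2092, with no overlap (-0.25 ± 0.06, limma adjusted p = 0.0046). The calls of Uqcrc1 and Cox6b1 were lost with a term for high Xist (limma adjusted p = 0.056 and 0.25), and that of Cox6b1 also with the mean over probe sets (0.51). Sdhaf1 fell by 0.37 and Ndufaf3 by 0.35. A term for high Xist, which separates the adult MV from the adult control arrays, gave 9 members lower (9.89%, against 10.2% of all genes). Between these groups, MV and high Xist therefore cannot be told apart. With quantile normalization 13 members were lower (14.3%, against 16.7%). Quantile normalization also moved the share of lower genes among all genes called in this comparison to 58.6%, against 77.3% as reported here. Without adult MV replicate 3 the count was 13 in all, and the share of all genes is not given for that fit. Red cell markers summed to 1182 to 1600 in adult MV lungs, against 2623 to 3328 in control lungs, with all 5 lower, and 6 of 8 type 1 and 4 of 10 endothelial markers fell. Of the 9 ciliated cell markers 2 fell and 1 rose, with sums of 2833 to 3220 in MV lungs, against 3847 to 4458 in control lungs; the part of these markers in the result was not tested.

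After LPS alone in adults complex I gave 8 of the 19 lower members and ATP synthase 5, the assembly factors gave 3, and complexes II, III and IV 1 each. Ndufs8 had 1256, 963, 1186 and 1264 on the adult LPS arrays, against 1635, 1983, 1954 and 1896 on the adult control arrays. The groups were apart (-0.67 ± 0.11, limma adjusted p = 2.6e-05), and the 6 probe sets of Ndufs8 ranged from -0.67 to -0.18. The probe set used for it is of a kind that can bind related transcripts. Sdha had 986, 1026, 916 and 1015 in LPS lungs, against 1350, 1211, 1060 and 1112 in control lungs, just without overlap (-0.25 ± 0.07, limma adjusted p = 0.0065). Uqcrc1 had 594, 564, 570 and 636, against 703, 752, 676 and 669 in control lungs, also without overlap (-0.23 ± 0.07, limma adjusted p = 0.014). Cox8a, the isoform of its subunit found in most tissues, had 842, 659, 805 and 781, against 876, 927, 839 and 929 in control lungs. The highest LPS array passed the lowest control array (-0.21 ± 0.07, limma adjusted p = 0.016). Atp5d had 1744, 1627, 1573 and 1859, against 1920, 2126, 2070 and 2092, without overlap (-0.27 ± 0.06, limma adjusted p = 0.0018).

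LPS alone also raised 3 members in adults, the accessory subunit Ndufb1 (0.22 ± 0.08) and the assembly factors Sdhaf2 (0.20 ± 0.07) and Ndufaf4. Ndufaf4 had 274, 209, 227 and 262 on the adult LPS arrays, against 148, 112, 128 and 162 on the adult control arrays. Every LPS array was above every control array (0.70 ± 0.10, limma adjusted p = 4.1e-06), and its second probe set gave 0.54. It was higher in adult LPS+MV lungs too, at 211, 233, 222 and 199 (0.56 ± 0.10, limma adjusted p = 6.3e-05), and relative to MV alone (0.43 ± 0.10, limma adjusted p = 0.0026). After MV alone it was at 174, 149, 152 and 135 and was not called (0.13 ± 0.10). Without adult control replicate 2 the adult LPS count was 12 in all, and the share of all genes is not given for that fit. Neutrophil markers summed to 27597 to 42808 in adult LPS lungs, against 3981 to 26500 in adult control lungs, where replicates 3 and 4 had 19752 and 26500. Endothelial markers summed to 11273 to 13002 in LPS lungs, against 14880 to 15417 in control lungs, with 5 of 10 lower. Type 1 cell markers summed to 30057 to 32382, against 36325 to 38467 in control lungs, with 5 of 8 lower. Type 2 cell markers summed to 44128 to 48675, against 48966 to 53075, with 4 of 8 lower and 1 higher. Ciliated cell markers summed to 2885 to 3310, against 3847 to 4458, with 3 of 9 lower. The endothelial, type 1, type 2 and ciliated cell sums did not overlap between the groups; the part of all these markers in the result was not tested.

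Between the adult treatments few members differed. LPS+MV against LPS gave Atp5b (0.26 ± 0.07) and Sdha (0.29 ± 0.07) as higher and Sdhaf1 (-0.44 ± 0.10) as lower, with 3.72% of all genes higher and 3.36% lower. Without adult LPS+MV replicate 2 none was higher and 3 were lower, and without replicate 1 of that group 4 were higher and 1 was lower. LPS+MV against MV gave Ndufaf4, Ndufb1 (0.25 ± 0.08) and the muscle isoform Cox7a1 (0.93 ± 0.30) as higher and none as lower, with 12% of all genes higher and 5.36% lower. The count against MV was 6 without adult LPS+MV replicate 1 and 1 without adult MV replicate 2 or 4. Shares of all genes are not given for fits without a single array. Without adult LPS+MV replicate 2 the comparison with MV gave 1 higher and 3 lower, and with quantile normalization 2 higher and 5 lower, while the share of lower genes among all called was 57.1%, against 30.9% as reported here.

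**Figure D4:**
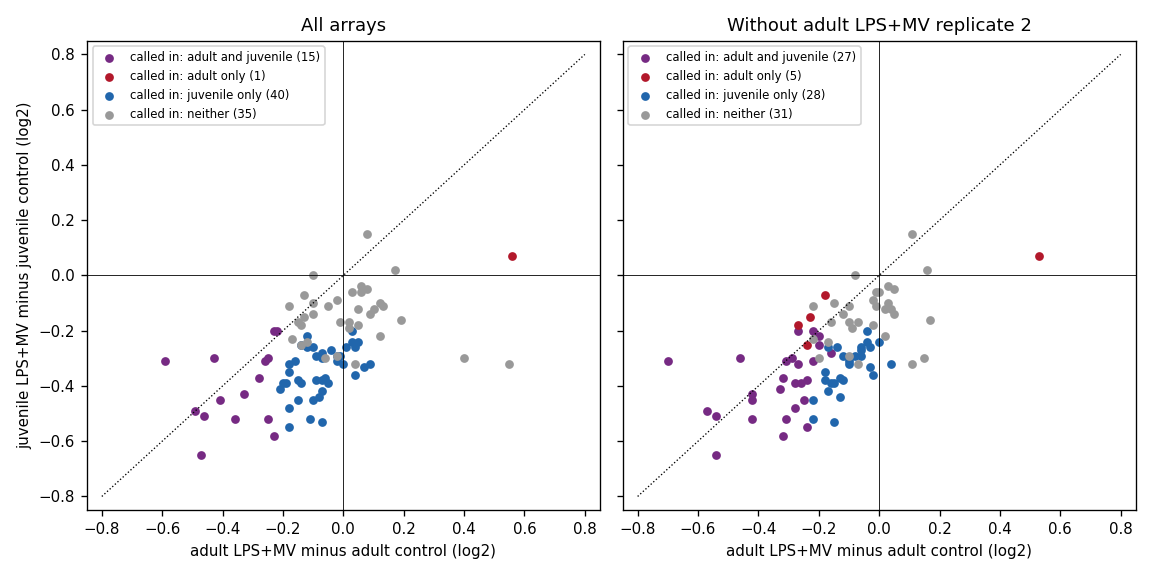
Log2 difference of each of the 91 members in adult LPS+MV against adult control (horizontal) and in juvenile LPS+MV against juvenile control (vertical), with all arrays (left) and without adult LPS+MV replicate 2 (right); colour shows in which of these comparisons a member was called, and the dotted line marks equal values. With all arrays 15 members were lower at both ages, and without that array 27.

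Whether the treatments acted differently on the members at the 2 ages was tested as an interaction, the adult difference minus the juvenile difference. For LPS+MV no member was called with limma, at an unadjusted p under 0.05 there were 33 of 91, all positive, and the median was 0.21, against -0.00 over all genes. In that test 2.1% of all genes were called in either direction, 18.8% had an unadjusted p under 0.05 and 49.5% were positive, while 81 of 91 members were positive. The members with the smallest p were Ndufaf4 (0.49 ± 0.15, limma adjusted p = 0.075), Ndufb11 (0.37 ± 0.12, limma adjusted p = 0.084) and Ndufs4 (0.40 ± 0.13, limma adjusted p = 0.085). A positive value means that the level was lowered less, or raised more, in adults. Without juvenile control replicate 4, 12 members were called (13.2%, against 4.36% of all genes called as higher), and the median was 0.25. Without the 4 arrays least like their group 4 were called (4.4%, against 2.65%), and the median was 0.17. Those arrays include adult LPS+MV replicate 2, the highest of its group for 77 of the 91 members. The interaction without replicate 2 alone is not given. For MV no member was called, 3 had an unadjusted p under 0.05, and the median was 0.05; 6.15% of all genes were called and 22.5% had an unadjusted p under 0.05. Of all genes called in the MV interaction 78.9% were negative, and 53.9% with quantile normalization. For LPS no member was called, 6 had an unadjusted p under 0.05, and the median was 0.02; 3.7% of all genes were called and 17.2% had an unadjusted p under 0.05. Without juvenile control replicate 4 there were 2 calls for MV and 1 for LPS, and without adult LPS replicate 1 there was 1 for LPS. Shares of all genes are not given for these MV and LPS fits.

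The comparisons of the 2 ages share no arrays, and their calls are set side by side here. Both use the same estimate of each gene's spread, so the calls at the 2 ages are not independent. After MV 9 members were lower at both ages, 47.4% of the 19 adult calls and 52.9% of the 17 juvenile calls. Over all genes tested, 501 were lower at both ages after MV, 15.7% of the adult and 59.4% of the juvenile calls. After LPS there were 8, 42.1% of the 19 adult and 50% of the 16 juvenile calls, while all genes gave 1120, or 37.2% of the adult and 64.2% of the juvenile calls. After LPS+MV all 15 members lowered in adults were also lowered in juveniles, which is 27.3% of the 55 juvenile calls. All genes gave 1750 for LPS+MV, 48.9% of the adult and 65.2% of the juvenile calls. These shares stand beside unlike juvenile totals: 55 of the 91 members but 20.5% of all genes tested were lower there. Without adult LPS+MV replicate 2 there were 27, 87.1% of the 31 adult and 49.1% of the 55 juvenile calls, beside 51.2% and 65.4% of the calls over all genes. Ndufv3 and Sdhaf4 were lower after each of the 3 treatments at both ages with all arrays in the fit. Both lost the juvenile MV call without juvenile MV replicate 3 (limma adjusted p = 0.13 for Ndufv3 and 0.20 for Sdhaf4) and the adult MV call with a term for high Xist (limma adjusted p = 0.057 and 0.19), and Sdhaf4 lost the adult MV call with quantile normalization too (0.13). Ndufv3 stood at 904 to 1224 in adult LPS+MV, 1013 to 1175 in adult LPS and 1116 to 1188 in adult MV lungs, all below the lowest adult control at 1296. In juveniles it was 910 to 925 in LPS+MV, 1081 to 1119 in LPS and 972 to 1167 in MV lungs, all below the lowest control at 1287. The LPS+MV and single-treatment ranges of Ndufv3 overlapped in adults and did not overlap in juveniles.

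Age itself changed few members. In adult control lungs against juvenile control lungs 7 fell and 2 rose, while 10.1% of all genes tested fell and 15.2% rose, and the median was -0.03, against 0.01 over all genes. Ndufs4, an accessory subunit close to the NADH-oxidising end, had 309, 294, 331 and 320 on the adult control arrays, against 446, 411, 419 and 337 on the juvenile control arrays. The groups did not overlap (-0.33 ± 0.09, limma adjusted p = 0.0062), but the other probe sets of Ndufs4 gave -0.01 and -0.06. Atp5g3 had 3495, 3573, 3435 and 3266 in adult lungs, against 4267, 3925, 4174 and 3640 in juvenile lungs, also apart (-0.21 ± 0.06, limma adjusted p = 0.0098). Uqcr10 had 858, 765, 817 and 865, against 978, 1012, 1022 and 838 in juvenile lungs, with overlap (-0.21 ± 0.08, limma adjusted p = 0.048). A second probe set of Uqcr10 was higher in adults (0.27) and the third probe set stood at -0.01, so its direction depends on the probe set. Ndufaf3 (0.29 ± 0.07) and Ndufa6 (0.28 ± 0.10) were higher in adult lungs. The count was 5 in all without juvenile control replicate 1 or adult control replicate 3, and 15 without juvenile control replicate 4. Shares of all genes are not given for these fits, so the counts describe the members only.

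The tissue isoforms replace common subunits in certain tissues. Cox4i2, known as the lung isoform of the Cox4 subunit and for its response to oxygen, had 58.5, 60.7, 54.8 and 55.8 on the adult MV arrays, against 65.7, 76.3, 72.8 and 67.0 on the adult control arrays. The groups were apart (-0.20 ± 0.07, limma adjusted p = 0.031), and over all 30 arrays it ranged from 54.8 to 89.5. This call was lost with quantile normalization (-0.12, limma adjusted p = 0.18) and with a term for high Xist (-0.16, limma adjusted p = 0.27). Cox8c, known from testis, had 93.3, 102, 110 and 120 in adult MV lungs, against 76.4, 77.9, 83.2 and 92.8 in adult control lungs, again without overlap (0.27 ± 0.07, limma adjusted p = 0.005); its second probe set gave 0.06 ± 0.05, and the call was lost with a term for high Xist (0.23 ± 0.09, limma adjusted p = 0.11). Cox6b2, also known from testis, had 180, 199, 185 and 183 in adult control lungs, against 226, 278, 265 and 281 in juvenile control lungs. All adult arrays lay lower (-0.42 ± 0.11, limma adjusted p = 0.0041). Ndufa4l2, an isoform of Ndufa4 known to rise in low oxygen, had 178, 237, 182 and 177 in adult control lungs, against 252, 290, 226 and 355 in juvenile control lungs, with overlap (-0.46 ± 0.12, limma adjusted p = 0.0044).

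The 3 isoforms of heart and skeletal muscle, Cox6a2, Cox7a1 and Cox8b, were called in none of the 6 comparisons of a treatment with its control, and their values differed between arrays of a group. Cox8b had 138, 841, 321 and 246 on adult LPS+MV replicates 1 to 4, where the cardiac marker sums were 6091, 19407, 23112 and 11461, and 184, 243, 197 and 199 on the adult control arrays. The LPS+MV values lay on either side of the controls (0.55 ± 0.31, limma adjusted p = 0.15). Cox7a1 had 85.2, 372, 303 and 169 in adult LPS+MV lungs, against 135, 158, 159 and 141 in control lungs (0.40 ± 0.30, limma adjusted p = 0.31), and Cox6a2 had 329, 684, 725 and 405, against 416, 477, 491 and 470 (0.13 ± 0.18, limma adjusted p = 0.61). In juvenile LPS lungs Cox7a1 had 89.3, 72.5, 201 and 274 and Cox8b had 165, 137, 321 and 330, with cardiac marker sums of 9056, 8032, 13744 and 23557 on the same arrays, against 186, 131, 118 and 104 for Cox7a1 and 251, 178, 205 and 174 for Cox8b in juvenile control lungs. The higher call of Cox7a1 in adult LPS+MV against adult MV lungs, where it had 75.5, 101, 96.8 and 101, was lost without adult LPS+MV replicate 2 (0.67 ± 0.30, limma adjusted p = 0.15). The part of muscle and brown fat tissue in these values was not tested. The brown fat gene Ucp1 was at 669 on adult LPS+MV replicate 2, the array with the highest Cox8b.

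**Figure D5:**
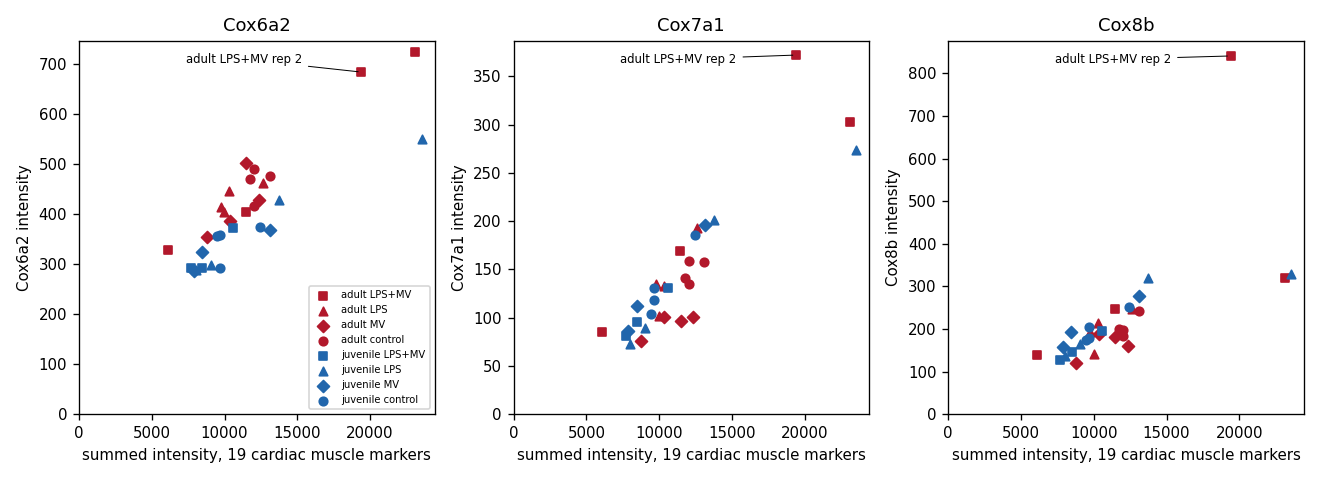
Intensity of Cox6a2, Cox7a1 and Cox8b (vertical) against the summed intensity of 19 cardiac muscle markers (horizontal) on the 30 arrays; red marks adult and blue juvenile arrays, and the symbol marks the treatment. Arrays with high cardiac sums, adult LPS+MV replicates 2 and 3 and juvenile LPS replicate 4, have high values, and Cox8b reaches 841 on adult LPS+MV replicate 2 at a cardiac sum of 19407.

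Other genes of mitochondrial energy metabolism were read beside the members. The nuclear genes of the mitochondrial ribosome, which makes the chain's mitochondrially encoded subunits, were also read: in juvenile LPS+MV lungs 33 of 56 fell and 1 rose, with a median of -0.30, led by Mrpl40 (-0.70 ± 0.10) and Mrpl27 (-0.70 ± 0.10). In juvenile MV lungs 22 of these 56 fell and 4 rose, and in juvenile LPS lungs 5 fell and 3 rose. Over all genes tested 20.5% fell in juvenile LPS+MV lungs, 6.45% in juvenile MV lungs and 13.3% in juvenile LPS lungs. The shares that rose were 10.8%, 4.42% and 9.58%. In adult LPS+MV lungs 23 fell and 5 rose (24 and 4 without replicate 2). In adult LPS lungs 9 fell and 6 rose, and in adult MV lungs 19 fell and 1 rose. Over all genes tested 27.3% fell in adult LPS+MV lungs (26.2% without replicate 2), 23% in adult LPS lungs and 24.3% in adult MV lungs. The shares that rose with all arrays were 14.8%, 13% and 7.15%. Of 29 assembly genes outside the naming rule 15 fell in juvenile LPS+MV lungs, with Uqcc2, an assembly factor of complex III, at -0.57. Among 14 genes for cytochrome c, ubiquinone synthesis and electron transfer flavoprotein 7 fell there, with Etfb at -0.48 and Coq2 at -0.38. Of 17 genes of the citric acid cycle and pyruvate dehydrogenase 5 fell, among them Suclg1 (-0.54 ± 0.10) and citrate synthase, Cs (-0.38 ± 0.08). In adult LPS+MV lungs 3 of these 17 rose and none fell with all arrays, while 14.8% of all genes tested rose and 27.3% fell; without replicate 2, 2 rose and 3 fell. Fh1, fumarase, was higher either way, at 0.46 ± 0.08 with all arrays and 0.44 ± 0.08 without replicate 2.

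Regulators and neighbouring pathways held genes that rose and genes that fell. Their counts stand beside 20.5% of all genes lower and 10.8% higher in juvenile LPS+MV lungs. In adult LPS+MV lungs these shares were 27.3% and 14.8%. Of 18 genes of mitochondrial biogenesis 3 rose and 4 fell in juvenile LPS+MV lungs: Pprc1, a coactivator related to PGC-1alpha, rose by 1.01 ± 0.14 and Gabpb1, a subunit of GABP, by 0.58, while Tfam, which packages and transcribes mitochondrial DNA, fell by 0.33. Pprc1 also rose in adult LPS+MV lungs (1.31), and Ppargc1a, which encodes PGC-1alpha, rose in adult MV lungs (1.41 ± 0.16). Of 19 genes of mitochondrial protein import 4 rose and 5 fell in juvenile LPS+MV lungs, and 8 rose and 1 fell in adult LPS+MV lungs (7 and 1 without replicate 2), with Timm10 at 0.33 in juveniles and 0.82 in adults. Of 20 glycolysis genes 6 rose and 3 fell in juvenile LPS+MV lungs, with hexokinase 2, Hk2, at 1.94 ± 0.18, the regulator Pfkfb3 at 1.69 and the glucose transporter Slc2a1 at 1.16; in adult LPS+MV lungs 7 rose and 4 fell (6 and 4 without replicate 2), with Hk2 at 2.07. Of 6 genes of redox and succinate metabolism 4 rose in juvenile LPS+MV lungs: Acod1, which makes itaconate, an inhibitor of complex II, by 2.87 ± 0.18, mitochondrial superoxide dismutase Sod2 by 1.78 ± 0.07, Hif1a by 1.19 and Hmox1 by 0.98. In adult LPS+MV lungs 4 rose and 1 fell, with and without replicate 2, where Acod1 rose by 3.32 and Sod2 by 1.87 with all arrays. Prdx3, a mitochondrial peroxiredoxin, fell in juvenile LPS+MV lungs (-0.27 ± 0.09).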

How the data were processed

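Whole-lung RNA was hybridised to Affymetrix mouse expression arrays, 1 array per animal. The deposited values are linear probe set intensities that the authors had summarised and normalized before deposit; the submitters' processing notes name MAS5 without a version, and the normalization is not given in the sources used here. Array medians were 21.6 to 22.8 and values 4.5 to 25073; the number of arrays limits the precision. Probe sets were named from the platform annotation (34945 of 45037 with 1 symbol, 932 with several, 9160 unlisted), and RefSeq held all 94 members under the same symbol.

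Probe sets entered if at least 3 arrays read them higher than the median of that array, and the brightest stood for the gene. The log2(intensity + 32) values went into a linear model of 8 group means (limma 3.58.1 under R 4.3.3, moderated with a trend in intensity, 22 residual and 4.85 prior degrees of freedom). Benjamini-Hochberg adjustment ran over 13089 genes in each of 14 comparisons. The scripts were tested on simulated data. Figures were drawn with matplotlib 3.10.9, and tables were handled with pandas 2.3.3 and numpy 2.4.6. Groups were taken from the sample labels, which number replicates alike in all groups; deviations of arrays with the same number had a median correlation of 0.033, against -0.012 for different numbers, so the number was not treated as a pairing.

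Values per array are given, by rule, for the called member with the smallest p in each complex in each of the 7 comparisons with a control as reference, and for tissue isoforms; Sdhaf4 and Ndufaf4 fall outside it and were chosen after their values were seen, as were other members shown a second time. Of other lists, up to 4 genes with the smallest p are named, and others with their value. The members and gene lists were chosen with earlier results of these data known. Of the 91 members 18 were read from probe sets that may bind related transcripts.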

Additional observations from a re-analysis of the deposited data

Results flagged for a closer look

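In each group of 4 arrays, the highest or the lowest array was compared with the range of the other 3 for 38 quantities, which gave 228 groups and 18 arrays set far apart; chance sets apart about 1 in 20 groups. Adult control replicate 1 was low in the mean log2 level of all members (9.69, against 9.73 on the others), of structural subunits (10.27, against 10.31 to 10.32), of complex I (9.91, against 9.97 to 9.98) and of ATP synthase (10.68, against 10.74 to 10.76), and low in summed brown fat markers (1067, against 1203 to 1224), but high in Sdhb (1289, against 1157 to 1174). Adult MV replicate 4 was high in ATP synthase (10.71, against 10.61 to 10.62) and in Atp5g3 (3504, against 3401 to 3413), adult MV replicate 3 was low in the assembly and coupling factors (7.23, against 7.34), and adult MV replicate 1 was low in Cox7a1 (75.5, against 96.8 to 101). Juvenile control replicate 1 was high in summed cardiac muscle markers (12431, against 9469 to 9671) and juvenile control replicate 3 in Cox8a (835, against 805 to 807).

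Among the treated arrays, adult LPS+MV replicate 2 was high in Cox6a1 (4320, against 3649 to 3740), adult LPS replicate 1 was low in Ndufa5 (385, against 543 to 565) and adult LPS replicate 3 was high in Cox8c (103, against 89.4 to 90.6). Juvenile LPS replicate 3 was low in Atp5h (3022, against 3189 to 3207) and juvenile LPS replicate 2 in Cox8c (85.5, against 97.7 to 100). Adult control replicate 2 was high in Ndufa4l2 (237, against 177 to 182).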

How the results depend on the processing

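The count of 55 members lower in juvenile LPS+MV lungs stayed between 42 and 54 with any 1 array left out and was 87 of 164 probe sets when each was tested; with the replicate block, where numbers do not pair the arrays, it was 54 lower and 1 higher, and the block moved no count of called members by over 1.5 times. Testing each probe set gave 30 calls for juvenile MV, 33 for adult MV, 37 for adult LPS and 30 for adult LPS+MV. It gave 34 and 11 for juvenile LPS+MV against LPS and against MV. For adult LPS+MV against LPS and against MV it gave 5 (2 higher, 3 lower) and 6, and for the LPS+MV interaction 1. Of the 48 genes with several probe sets, 13 had all of them lower in juvenile LPS+MV lungs. In adult MV lungs probe sets of Cox5b were called in both directions. Fitting only the compared groups gave 0 for juvenile MV, 8 for juvenile LPS, 14 and 1 for juvenile LPS+MV against LPS and MV, 1 each for adult LPS+MV against LPS (lower) and MV, and 7 for age in controls (4 higher, 3 lower), with fewer samples in each fit. A term for high Xist gave 9 for adult MV, 11 for juvenile LPS+MV against LPS and 1, lower, for adult LPS+MV against LPS. Over all genes tested, that term gave 2546 lower in adult LPS+MV against control, where the main fit gave 3577. In juvenile LPS+MV against control it gave 2196 lower, where the main fit gave 2684. The member counts of these LPS+MV comparisons with that term are not given. Quantile normalization gave 7 (2 higher, 5 lower) for adult LPS+MV against MV and 1 for the MV interaction. The mean over probe sets gave 4 (1 higher, 3 lower) for adult LPS+MV against LPS and turned Uqcr10 in adult against juvenile control lungs to 0.02. Alternatives chosen after seeing the data were these. Leaving out the 4 arrays least like their group gave 22 for age in controls, 30 for juvenile LPS, 38 for adult LPS+MV, 20 for juvenile LPS+MV against MV, 5 (2 higher, 3 lower) and 4 (1 higher, 3 lower) for adult LPS+MV against LPS and MV, and 3, 2 and 4 for the MV, LPS and LPS+MV interactions. Leaving out the 3 arrays highest in cardiac muscle markers gave 31 for adult LPS+MV, 2 and 1, all lower, for adult LPS+MV against LPS and MV, and 1 for the LPS interaction. With any 1 array left out, the calls ranged over 5 to 15 for age in controls, 5 to 24 for juvenile MV, 8 to 20 for juvenile LPS, 13 to 22 for adult MV, 12 to 21 for adult LPS, 15 to 32 for adult LPS+MV, 12 to 22 and 3 to 16 for juvenile LPS+MV against LPS and MV, 2 to 5 and 1 to 6 for adult LPS+MV against LPS and MV, and 0 to 2, 0 to 1 and 0 to 12 for the MV, LPS and LPS+MV interactions; without adult LPS+MV replicate 2 the adult LPS+MV comparisons with LPS and MV gave 3 (all lower) and 4 (1 higher, 3 lower). A pseudocount of 1 and no intensity trend kept all 191 values of called members past the threshold, the replicate block 185, quantile normalization 182, the mean over probe sets 174, no filter 173, the term for high Xist 152 and a fit of only the compared groups 121. Apart from the smaller fits, the cause was not tested. Most counts in this part stand without the share of all genes, so they show only how the number of called members moved.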
